A study of Rattus norvegicus with 14 samples.

Results

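Hoxa2, Hoxb4, Meis1, Meis2, Irx2, Irx3 and Irx5 are homeobox genes that give cells of the embryo their position along the body and brain axes. They form a set here because of signals in rat choroid plexus (CP) that were higher in sham-operated than in ovariectomized (OVX) females, so values of the females chose the set. Of the 7 genes, 5 had a probe whose RefSeq accession named them, out of 15148 genes so named. Meis2 and Irx3 had no such probe, so nothing is shown for them.

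Total RNA came from the lateral ventricular CP of Wistar rats that were 2 months old at surgery and were sampled 2 weeks after it. The groups were sham-operated females (n = 3), OVX females (n = 3), orchidectomized (OOX) males (n = 4) and sham-operated males (n = 4). Each replicate was a pool of RNA from 3 animals, of which 200 ng was labelled with Cy3 and hybridized to its own Agilent array. The protocol text speaks of 3 biological replicates, whereas each male group holds 4 arrays, and all 4 were used. The design asked how loss of the ovaries or testes changed the CP transcriptome. The CP is the epithelial sheet in the brain ventricles that secretes cerebrospinal fluid.

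Hox genes lie in 4 chromosomal clusters, and their order along each cluster matches the order in which they are switched on from the hindbrain backwards. Meis proteins, like Pbx proteins, belong to the TALE class of homeodomain proteins and bind DNA next to Hox proteins. Irx (Iroquois) proteins are also TALE proteins and pattern the neural plate, heart and limbs. The lateral ventricular plexus arises from the forebrain, in front of the domain in which Hox genes are active, whereas the plexus of the fourth ventricle arises from the hindbrain.

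Promoter sequence from RefSeq (rat build GRCr8) was at hand for 4 of the 7 genes, and the 3 of these with a probe are shown. Each run is the 250 bases before the transcript start, 5′ to 3′ on the strand of the gene. Capitals mark matches, on either strand, to TGACAG, the core letters that Meis and related TALE proteins bind, and to TGATNNAT, the letters that Hox and Pbx proteins bind together.
Hoxa2 (chr4:82595693-82595942, minus strand): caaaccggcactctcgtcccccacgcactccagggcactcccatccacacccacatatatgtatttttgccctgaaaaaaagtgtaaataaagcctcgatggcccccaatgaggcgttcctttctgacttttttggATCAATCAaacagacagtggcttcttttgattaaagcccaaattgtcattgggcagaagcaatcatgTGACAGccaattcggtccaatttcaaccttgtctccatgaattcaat
Meis1 (chr14:97495084-97495333, minus strand): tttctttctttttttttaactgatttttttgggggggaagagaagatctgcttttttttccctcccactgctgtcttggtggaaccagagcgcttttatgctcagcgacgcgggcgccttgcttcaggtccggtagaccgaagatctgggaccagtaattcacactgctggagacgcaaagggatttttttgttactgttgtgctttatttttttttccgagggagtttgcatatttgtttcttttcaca
Irx2 (chr1:32494931-32495180, minus strand): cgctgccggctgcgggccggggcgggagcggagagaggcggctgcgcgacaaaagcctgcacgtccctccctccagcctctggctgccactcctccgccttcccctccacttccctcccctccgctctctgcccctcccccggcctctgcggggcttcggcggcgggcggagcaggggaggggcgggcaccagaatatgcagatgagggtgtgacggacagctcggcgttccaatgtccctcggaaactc
The Hoxa2 run held 1 match to TGACAG, starting 47 bases before the transcript start, and 1 match to TGATNNAT, starting 114 bases before it. The matches did not overlap. Among 33469 rat promoter windows of the same length, 15.8% held TGACAG, 7.96% held TGATNNAT and 1.17% held both. The Meis1 and Irx2 runs held neither set of letters, and 71.6% of the Irx2 run was G or C against 43.6% for Meis1 and 45.2% for Hoxa2.

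Values below are log2 of the processed Cy3 signal over the median of the array, so that 0 is the median probe and 1 unit is a doubling. A spot is called well above background by the scanner software. Levels of different genes came from different probes and were not compared. The differences in females are given with their standard error from limma and without a test, since these values selected the genes.

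Hoxa2, a selector gene of the hindbrain and of the second branchial arch, passed background in sham females only. Its signal was -1.57, -0.77 and -0.95 on the sham female arrays and -6.81, -5.57 and -6.91 on the OVX arrays. It was -6.58, -6.68, -6.23 and -5.77 on the OOX arrays and -6.71, -6.31, -6.62 and -5.58 on the sham male arrays. Thus Hoxa2 was well above background on all 3 sham female arrays and on none of the other 11, whose values are background. By the values as given OVX was 5.34 ± 0.41 (SE) below sham on the log2 scale. Because Hoxa2 was not measured above background after OVX, the fold is a bound: it was at least 12.3-fold lower, with each OVX array set to the dimmest signal that the scanner software accepted as above background there.

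Meis1, the TALE cofactor of Hox proteins and a regulator of blood stem cells, was well above background on all 14 arrays. Its signal was 4.42, 4.59 and 4.01 in sham females and 0.50, 0.13 and 1.07 in OVX females. In OOX males it was -0.04, 0.30, 0.30 and 1.15, and in sham males 1.19, 0.24, 0.71 and 0.04. Every sham female array exceeded every other array, and OVX and male arrays overlapped. The difference between OVX and sham was -3.77 ± 0.28 (SE), a 13.6-fold lower signal. The other Meis1 probe, which was dimmer, gave 1.45, 1.64 and 1.05 in sham females and -2.17, -2.33 and -1.61 in OVX females. Its difference of -3.41 was close to that of the brighter probe, and it too was well above background on every array.

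Hoxb4, which acts in the posterior hindbrain and in blood progenitors, differed less. It gave -1.68, -2.53 and -1.54 in sham females and -3.59, -3.48 and -3.45 in OVX females. The males gave -3.33, -3.67, -3.33 and -3.51 after OOX and -4.45, -3.75, -3.45 and -3.92 after sham surgery. The sham female arrays were again above all others, by 0.79 at the closest point. OVX was 1.59 ± 0.27 (SE) below sham on the log2 scale, or 3.02-fold lower. Hoxb4 was well above background on 12 of 14 arrays, and both exceptions were sham males.

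Irx5, which represses potassium channel genes across the wall of the heart, had the smallest difference. Its signal was -0.04, 0.64 and 0.13 in sham females and -1.26, -0.88 and -1.23 in OVX females. It was -1.27, -1.23, -1.55 and -0.80 in OOX males and -0.22, -1.17, -0.99 and -1.06 in sham males. The sham females lay above every other array, but sham male 1 came within 0.18 of the lowest of them. The difference was -1.36 ± 0.22 (SE), or 2.58-fold lower after OVX, on a probe well above background on all 14 arrays.

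Irx2, a neighbor of Irx1 and Irx4 in another Irx cluster, departed from the shared pattern in a male sample. It gave -0.94, -0.24 and -1.04 in sham females and -2.77, -3.70 and -2.53 in OVX females, so these groups did not overlap. In OOX males it gave -3.38, -3.01, -2.89 and -2.91, and in sham males 0.46, -3.34, -3.54 and -4.04. Sham male 1 was thus the highest array of the 14, above all sham females, while the other sham males were among the lowest. OVX was 2.26 ± 0.36 (SE) below sham on the log2 scale, or 4.79-fold lower, by the brighter probe.

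**Figure D1:**
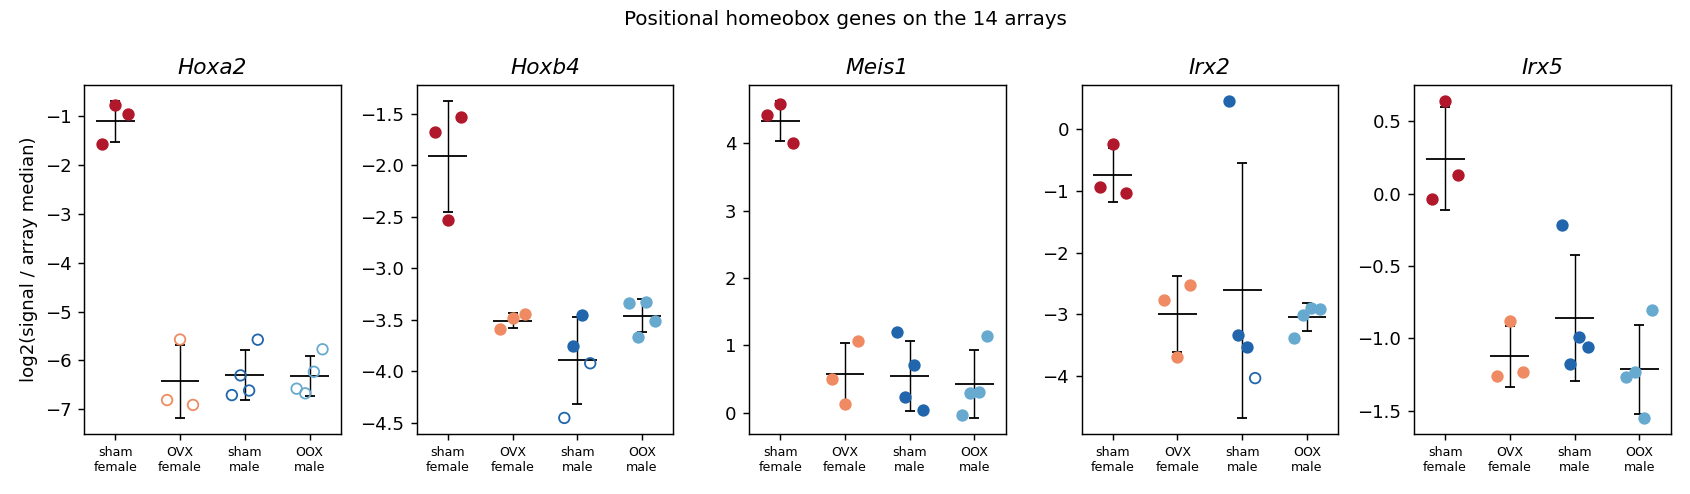
Log2 signal over the array median (vertical axis, a separate scale for each gene) of the 5 genes on the 14 arrays, by group. Points are arrays, open where the probe was not well above background, and lines and bars are the group mean and SD. The sham females stand above the other 11 arrays for Hoxa2, Hoxb4, Meis1 and Irx5, and sham male 1 exceeds them for Irx2.

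The probes of Irx2 disagreed. The dimmer one gave -4.87, -4.50 and -5.36 in sham females and -4.51, -3.82 and -4.70 in OVX females, a difference of 0.57 in the other direction. It was well above background on none of the 3 sham female arrays and on 2 of the 3 OVX arrays. The dimmest signal accepted as above background was itself higher on sham female arrays (-4.28 to -3.75) than on OVX arrays (-4.80 to -4.63). On the mean of both probes, OVX was 0.85 below sham on the log2 scale, so the size of the Irx2 difference depends on the probe.

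**Figure D2:**
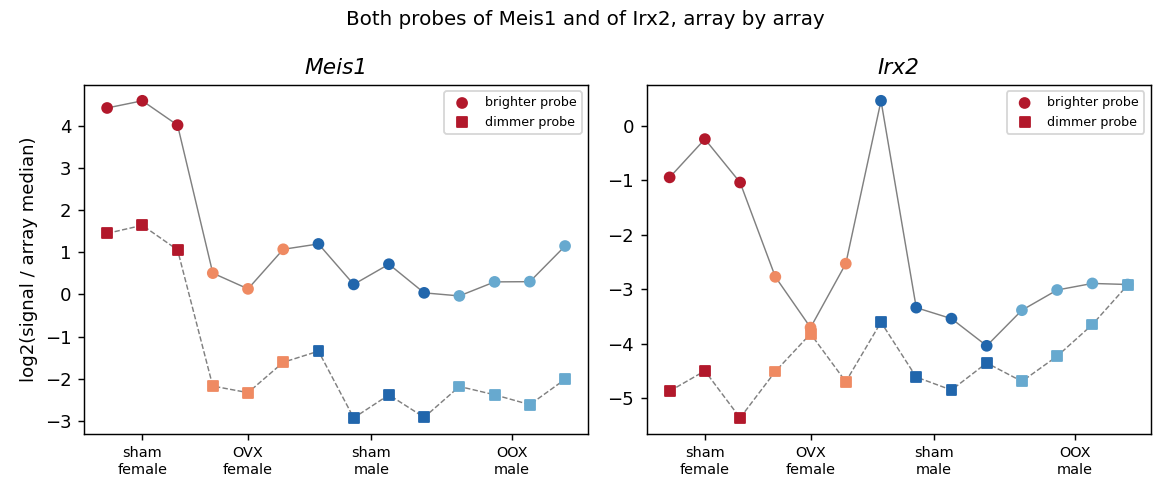
Log2 signal over the array median (vertical axis) of the brighter and the dimmer probe of Meis1 (left) and Irx2 (right) on the 14 arrays, colored by group. Lines only join the arrays of a probe. The Meis1 probes run in parallel, with differences of -3.77 and -3.41 between OVX and sham females, whereas the Irx2 probes differ by -2.26 and 0.57.

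All 5 genes were thus lower in every OVX array than in every sham female array. Of 27519 genes and unnamed probes tested, 14.7% were lower without overlap in the same way and 14.5% higher, and 7.23% were called at an adjusted p under 0.05 by limma, 4.48% lower and 2.74% higher. An unadjusted p under 0.05 was reached by 22.4%. For 4 of the 5 genes every sham female array also exceeded the other 11 arrays, which held for 1.16% of the table. Nothing is read from these shares, because the genes were picked on the female signals. The median difference of the 5 genes was -2.26, and that of all features was -0.04.

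In males the genes can be tested, and none of the 5 passed the test after orchidectomy. By limma with Benjamini-Hochberg adjustment over the table, the OOX minus sham difference of Meis1 was -0.12 ± 0.32 (SE; 95% interval -0.85 to 0.62; adjusted p = 0.964). For Hoxb4 it was 0.44 ± 0.22 (SE; interval -0.06 to 0.93; adjusted p = 0.694), with the OOX mean above the sham mean. For Irx5 it was -0.35 ± 0.25 (SE; interval -0.92 to 0.21; adjusted p = 0.849). For Irx2 the difference was -0.44 ± 0.88 (SE; interval -2.45 to 1.58; adjusted p = 0.959), and it turned to 0.59 without sham male 1, so that its size is poorly fixed. Hoxa2 was dim on all 8 male arrays, and its difference of -0.01 (adjusted p = 0.995) compares background with background.

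None of the 5 reached an unadjusted p under 0.05 in males, where 7.69% of features did, and none separated the male groups without overlap, as 1.83% of features did with OOX lower and 2.53% with OOX higher. Over all features 0.0618% passed the adjusted threshold in males. The order of the group means began with sham females for every gene. The other 3 groups lay within 0.13 to 0.44 log2 units of each other, and their arrays overlapped for all 5 genes, so no order among them is read.

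**Figure D3:**
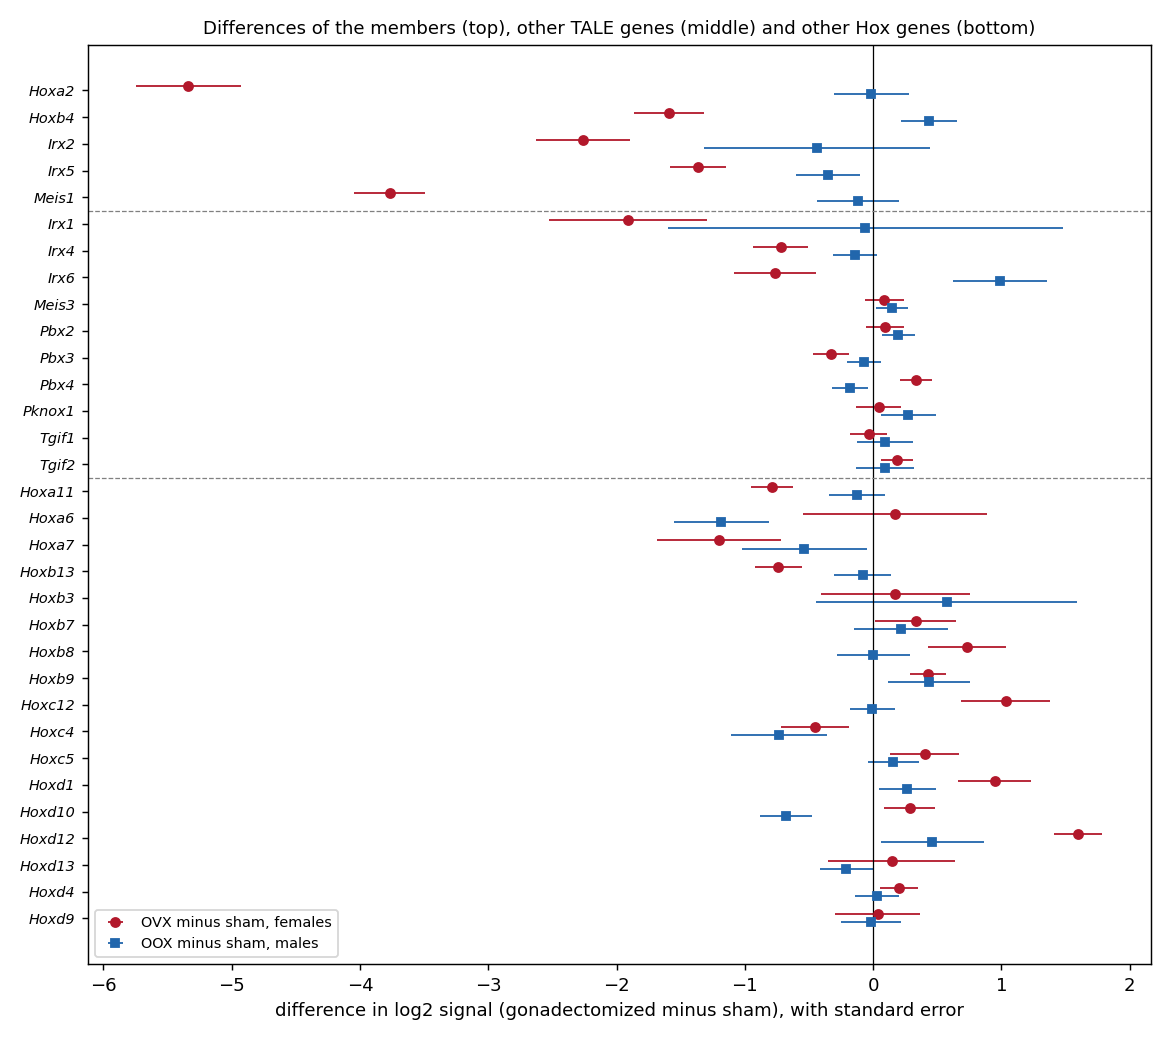
Difference in log2 signal (horizontal axis), gonadectomized minus sham, with its standard error, in females (circles) and males (squares) for the 5 genes, 10 other TALE genes and 17 other Hox genes. The 5 genes lie between -5.34 and -1.36 in females and between -0.44 and 0.44 in males. The other TALE and Hox genes shown lie between -1.91 (Irx1) and 1.60 (Hoxd12) in females and between -1.18 and 0.99 in males.

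For the other Hox genes the calls are given beside the shares over all features. Of 18 with a named probe, 1 was called higher and 1 lower after OVX by limma, against 2.74% and 4.48% of all features. An unadjusted p under 0.05 was reached by 8 of the 18, against 22.4% of features. Their median difference was 0.24. Hoxd12, a gene of limb and hindgut patterning, rose by 1.597 ± 0.189 (SE; adjusted p = 0.040, limma), with 3 of 3 OVX and 0 of 3 sham female arrays well above background. With the sham arrays at their detection limit the bound on this fold was under 1, so none is given. Hoxa11 fell by 0.79 ± 0.16 (SE; adjusted p = 0.042, limma) but was well above background on no array. Hoxb13, also well above background on no array, differed by -0.74 ± 0.18 (SE) without passing (adjusted p = 0.063, limma). None of the calls in females given here and below, for Hoxd12, Hoxa11, regional, retinoic acid and marker genes, held when sham female 1 or 3 or any OVX array was left out, or with slide as a block. Dim probes as a class shifted: the 1771 genes well above background on no female array had a median difference of -0.59, and 30.4% of them were called lower.

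Hoxb3, beside Hoxb4 in its cluster, was well above background on no sham female and 1 OVX array, with a difference of 0.17 ± 0.58 (SE; adjusted p = 0.888, limma). Hoxb9, Hoxc5, Hoxd4 and Hoxd10 were the other Hox genes well above background on all 14 arrays. Their differences after OVX were 0.43, 0.40, 0.20 and 0.28, with limma adjusted p of 0.135, 0.438, 0.486 and 0.451. Hoxb7, Hoxb8 and Hoxd1 were well above background on every OVX array and on no sham female array. Their differences were 0.33, 0.73 and 0.95, with limma adjusted p of 0.587, 0.228 and 0.107. The dimmest signal accepted as above background was higher on sham female arrays (-4.28 to -3.75) than on OVX arrays (-4.80 to -4.63). Hoxb7 was brighter on sham female 3 (-3.60, not accepted) than on OVX female 1 (-4.22, accepted), and the female groups overlapped for Hoxb7 and Hoxb8. In males 0 of the 18 passed the adjusted p by limma, against 0.0618% of all features. By limma 2 had an unadjusted p under 0.05, against 7.69%, among them Hoxd10 with -0.68 ± 0.21 (SE; adjusted p = 0.518).

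Among the other TALE genes, 0 of 11 passed the adjusted p in females by limma. An unadjusted p under 0.05 was reached by 3 of them, against 22.4% of all features. Irx1, the cluster neighbor of Irx2, gave -2.59, -0.59 and -1.02 in sham females and -4.00, -3.51 and -2.42 in OVX females. Its difference was -1.91 ± 0.62 (SE; adjusted p = 0.128, limma). In sham males it gave 1.84, -5.49, -4.34 and -5.64, so sham male 1 was the highest of the 14 arrays for Irx1 as for Irx2. Irx6, the cluster neighbor of Irx5, differed by -0.76 ± 0.32 (SE; adjusted p = 0.229, limma), and Irx4 was well above background on no array. Genes of the Pbx family and Meis3, whose proteins partner Hox proteins, had small differences that did not pass: Pbx3 differed by -0.33, Pbx4 by 0.33 and Meis3 by 0.09, with limma adjusted p of 0.248, 0.186 and 0.776.

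Calls after OVX among regional genes outside these families stand beside shares of 4.48% lower and 2.74% higher over all features. Of 21 other hindbrain genes, 1 was called lower after OVX, Ptf1a (-0.79 ± 0.16 SE; adjusted p = 0.040, limma), a cerebellar determinant that was well above background on no female array. Pax2, a midbrain and hindbrain factor, differed by 0.71 and Lbx1, a dorsal hindbrain factor, by -1.58, with limma adjusted p of 0.066 and 0.095. Lbx1 was well above background on no array, so its difference compares background with background. Of 23 forebrain genes, Vax1, a ventral forebrain factor, rose by 0.83 ± 0.16 (SE; adjusted p = 0.040, limma), from 0 of 3 sham arrays well above background to 3 of 3. With the sham arrays at their detection limit it was at least 1.34-fold higher. Tbr1, a cortical factor, fell by 0.79 ± 0.16 (SE; adjusted p = 0.042, limma), also well above background on no female array. The medians were -0.15 for the hindbrain and 0.19 for the forebrain genes, against -0.04 for all features.

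Retinoic acid is the signal that switches on Hox genes along the hindbrain. Of 17 genes of its transport, synthesis and breakdown, 2 were called lower and 0 higher after OVX. Over all features these shares were 4.48% and 2.74%. By sign alone, 9 of the 17 were lower. Without overlap 6 were lower and 0 higher, against 14.7% and 14.5% of all features. By limma 6 had an unadjusted p under 0.05, against 22.4%. The summed signal of the 17, in multiples of the array median, was 353 to 443 in sham and 264 to 327 in OVX females. Aldh1a2, a retinaldehyde dehydrogenase that makes retinoic acid in the meninges, gave -0.50, -0.08 and -0.56 in sham females and -1.16, -1.07 and -1.36 in OVX females, and fell by 0.82 ± 0.17 (SE; adjusted p = 0.046, limma). Rdh10, Aldh1a1 and Cyp26b1 differed by -0.78, -1.20 and -1.21 without passing (limma adjusted p of 0.052, 0.064 and 0.110). The receptor gene Rara differed by 0.01, and the median of the list was -0.01. On the slide that sham and OVX females shared, Aldh1a2 differed by -0.60. In males 0 of 17 passed by limma, with 1 at an unadjusted p under 0.05, against 0.0618% and 7.69% of all features.

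In bulk tissue, fewer cells of a type and less RNA per cell cannot be told apart. Of the CP epithelial markers, 13 of 13 were well above background throughout, as were 9 of 9 astrocyte and 9 of 9 oligodendrocyte markers. Passing background therefore does not set CP apart from other tissue, nor does it test which ventricle the CP came from. By limma 0 of the 13 CP markers were called in either contrast. An unadjusted p under 0.05 was reached by 1 in females, against 22.4% of all features, and by 8 in males, against 7.69%. In males 11 of the 13 were lower after OOX, with a median of -0.31. Of 14 neuron markers, 13 were lower after OVX, with a median of -1.13. By limma 1 was called lower, against 4.48% of all features, and 1 had an unadjusted p under 0.05, against 22.4%. Their summed signal, in multiples of the array median, was 11.04, 58.8 and 50.9 in sham females and 7.4, 14.3 and 23.8 in OVX females. For 9 astrocyte markers, of which 0 were called, it was 64.6 to 124.9 in sham and 58.5 to 94.7 in OVX females.

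The order of the arrays was not the same for these markers and for the homeobox genes. Sham female 1 had a neuron sum of 11.04, within the OVX range, and a summed signal of the 5 genes of 23.5, against 27.2 and 18.5 on the other sham females and 1.8 to 2.8 after OVX. This sum is mostly Meis1. The oligodendrocyte marker sum of sham female 1 was 387.0, with 388.3 and 365.4 on the other sham females. After OVX that sum was 381.0, 250.1 and 268.0, and in males it was 371.3 on sham male 1 and 164.6 to 293.4 elsewhere. Sham male 1 had the highest neuron sum, 101.2, and astrocyte sum, 180.4, with a sum of the 5 genes of 4.6, the highest outside the sham females, where the other arrays had 1.6 to 3.0. On that array Irx2 (0.46) was the highest of the 14, and Irx5 (-0.22) and Meis1 (1.19) were the highest of the males. Hoxb4 (-4.45) and Hoxa2 (-6.71, background) were the lowest of the males there. OOX male 2, with 46.5 and 165.5, had 1.9. With sham female 1 alone against the OVX females, the differences were -4.87 for Hoxa2, -3.85 for Meis1, -1.83 for Hoxb4, -2.06 for Irx2 and -1.08 for Irx5.

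**Figure D4:**
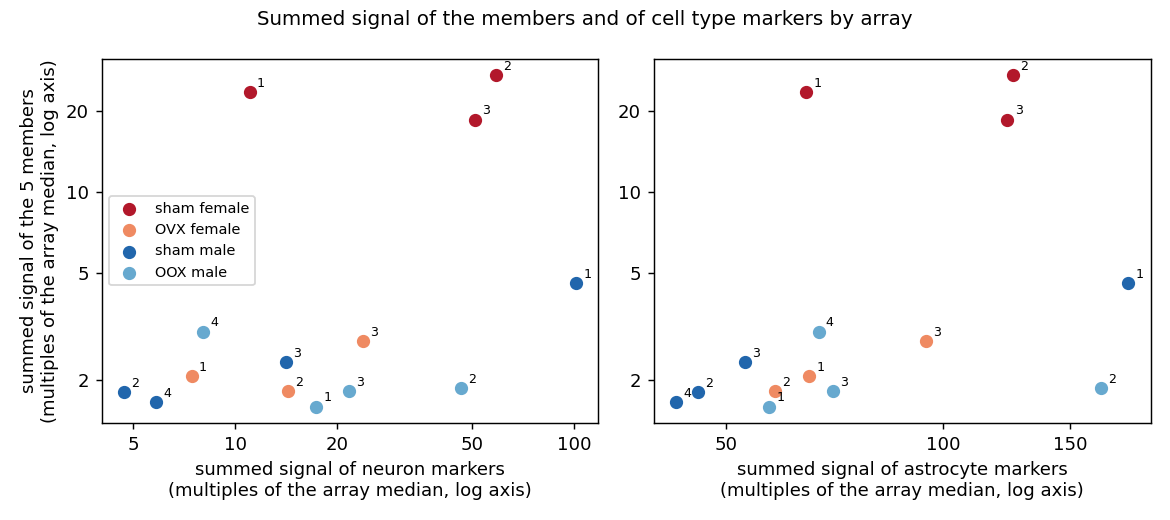
Summed signal of the 5 genes (vertical log axis, multiples of the array median) against the summed signal of 14 neuron (left) or 9 astrocyte markers (right) on a log axis. Points are arrays, numbered by replicate. Sham female 1 lies at a neuron sum of 11.04 and a gene sum of 23.5, and sham male 1 at 101.2 and 4.6.

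Fibroblast markers were also lower after OVX, in 12 of 12 cases with a median of -0.39, and 1 was called, Mgp, matrix Gla protein (-0.82; adjusted p = 0.049, limma). By limma 5 of the 12 had an unadjusted p under 0.05, against 22.4% of all features. Without overlap 5 were lower and 0 higher, against 14.7% and 14.5%. The summed signal of the 12 fibroblast markers was 801 to 980 in sham and 607 to 842 in OVX females. Of 6 noradrenergic markers, Dbh, which makes noradrenaline, was called lower (-3.97; adjusted p = 0.034, limma) and passed background on 3 of 3 sham and 0 of 3 OVX arrays. It was at least 5.30-fold lower. Oligodendrocyte, ependymal, mural and endothelial lists had 0 called among 9, 6, 9 and 8 genes by limma, with 1, 0, 3 and 1 at an unadjusted p under 0.05. Over all features, 4.48% were called lower in females and 22.4% had an unadjusted p under 0.05. The part of these markers in the differences of the homeobox genes was not tested.

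Slide and scan day ran alongside the groups. Sham females 1 and 2 were alone on a slide, sham female 3 shared one with OVX female 1, and these 4 arrays made up a scan day of their own. Within the shared slide OVX female 1 was below sham female 3 by -5.86 for Hoxa2, -3.51 for Meis1, -2.06 for Hoxb4, -1.73 for Irx2 and -1.38 for Irx5 (OVX minus sham). The other scan day held no sham females, and its OVX and male arrays overlapped for all 5 genes.

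Genes with the profile nearest to a member were sought among 12513 genes, by the root mean square difference of their log2 values over the 14 arrays, each centered on its mean. For both Hoxa2 and Meis1 they were Kcnj14, an inward rectifier potassium channel, Gfra1, a receptor for glial cell line-derived neurotrophic factor, and Mme, neprilysin. The distance of Meis1 was 0.35 to Gfra1, 0.44 to Kcnj14 and 0.51 to Mme. For Hoxa2 no distance is given, since 11 of its 14 values are background and the choice of genes rests on its level in the 3 sham females. Kcnj14 gave 5.84, 5.89 and 5.16 in sham females and 1.32, 0.86 and 0.82 in OVX females, with males between 0.46 and 1.41. Gfra1 gave 0.28, 0.89 and 0.33 in sham females and -3.16, -3.10 and -2.63 in OVX females, with males between -3.31 and -2.58.

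For Irx5 the nearest profiles were those of Slc22a23, a solute carrier, at 0.28, Rasd2, a small GTPase, at 0.31, and Timp4, an inhibitor of matrix metalloproteinases, at 0.32. Among the members the nearest to Irx5 was Hoxb4, at 0.65. Like Irx5, Rasd2 and Timp4 were raised on sham male 1, at 4.81 and 2.15, and Timp4 there overlapped the sham females. These likenesses are descriptions over 14 arrays that share their groups and slides.

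**Figure D5:**
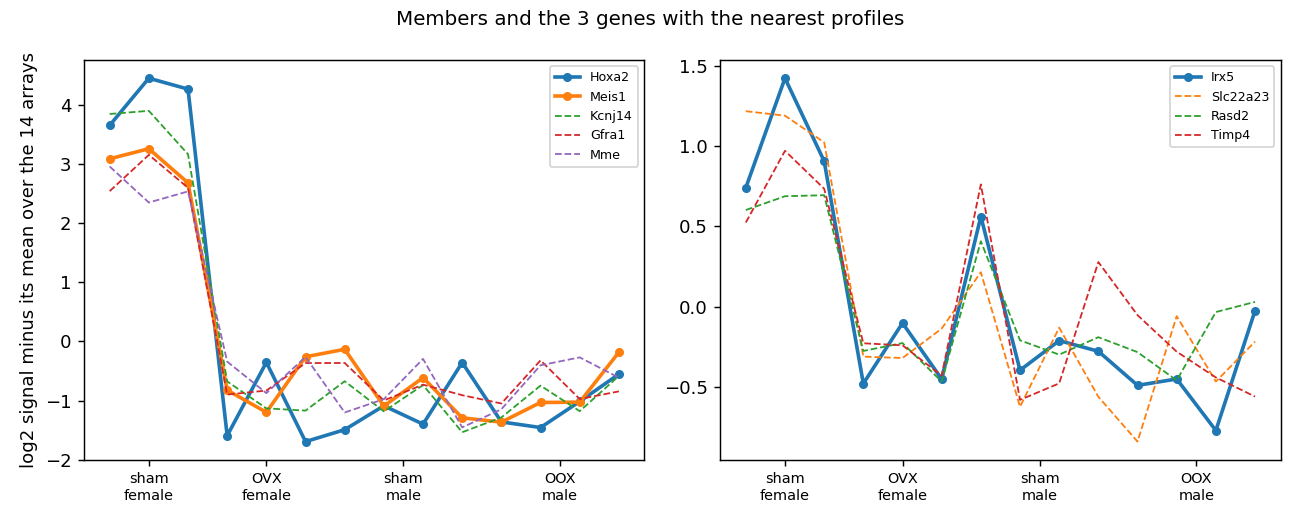
Log2 signal of Hoxa2 and Meis1 (left) and Irx5 (right), minus its mean over the 14 arrays (vertical axis), with the 3 genes of nearest profile as dashed lines. Arrays run by group along the horizontal axis and lines only join them. Every gene shown has its highest group mean in sham females, and Timp4 on sham male 1 (2.15 before centering) overlaps them. The Hoxa2 values outside sham females are background.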

How the data were processed

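RNA of 14 pools was labelled with Cy3 and hybridized to 1-color Agilent rat arrays, which the authors scanned and extracted with Feature Extraction 10.5.1.1. The deposited files hold the processed signal of each spot, a linear intensity after background correction, and a value table of log2 intensities that the authors centered on the array median. Here control spots and outlier spots were left out, the log2 processed intensity was averaged over the spots of a probe, and the array median over 30367 probes was subtracted, after the median centering of the study's methods. Probes were named by accession through RefSeq's rat gene table (GRCr8, names only): 17996 probes gave 15148 genes, and 12371 stayed unnamed. A gene was read by its brightest probe. The tests were made in limma (version 3.58.1, under R 4.3.3), separately for females and males, with Benjamini-Hochberg adjustment over 27519 features and a threshold of 0.05. The fits were tested on simulated data. Genes and lists were chosen with earlier results of these data known. Named were all members, list genes past the threshold, up to 4 more per list by unadjusted p where they bear on the members, the 3 nearest profiles of Hoxa2, Meis1 and Irx5, and Hox genes well above background on all arrays of a group. Hoxb3, Rara, Pbx3 and Meis3 were named beside these as a cluster neighbor, a receptor and partners. Some genes of the lists are not reported here by name.

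Between 79.7% and 87.2% of spots were well above background, and replicates correlated at 0.967 to 0.992 over probes. Arrays lay on 5 slides and 2 scan days. The small number of arrays in each group limits the precision, and the groups were not balanced over slides and scan days. The alternatives changed the scaling, background correction, probe rule, outlier spots, blocks, weights, test and arrays. For normexp the median foreground and background intensities were used, with an offset of 50.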

Additional observations from a re-analysis of the deposited data

Results flagged for a closer look

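Irx2 stood apart on sham male 1. The gap between this array and the next of the 4 sham males was 0.844 of the range of the group, above Dixon's 95% critical value for 4 samples. Chance flags about 1 in 20 groups. The summed neuron (101.2) and astrocyte (180.4) markers were also highest on this array, and their part in the Irx2 value was not tested. Without it, the difference between OOX and sham males was 0.59 in place of -0.44.

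For Dbh, the male minus the female effect was 4.95 on the log2 scale (adjusted p = 0.0373, limma interaction term), from -3.97 in females and 0.98 in males. The probe was well above background on 3 of 3 sham female, 0 of 3 OVX, 1 of 4 OOX and 0 of 4 sham male arrays. The male value therefore compares mostly background with background, and the female value is a bound, at least 5.30-fold lower after OVX, so the size of 4.95 and its p are not a measured difference between the sexes.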

How the results depend on the processing

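All 5 genes were lower in OVX than in sham females under each of 19 alternatives, with ranges of -5.86 to -1.37 for Hoxa2, -4.02 to -3.51 for Meis1, -2.06 to -0.58 for Hoxb4, -2.50 to -0.85 for Irx2 and -1.51 to -1.002 for Irx5. The highest values of Hoxa2, Hoxb4 and Irx5 came with normexp and its offset, which shrinks dim signals. Their median of -2.26 became -1.14 under normexp, -1.59 with the mean over probes, -2.06 with slide as a block, -2.03 with scan day as a block and -2.06 without sham females 2 and 3 together, an alternative chosen after seeing the data. Leaving out each array gave -2.50 to -1.91. None of the 5 was called in males under any alternative.

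The calls in other lists were fragile. The 3 calls among 50 other Hox, TALE and hindbrain genes in females became 0 under quantile normalization, normexp, the slide block, the scan day block, the methods' t-test, and without sham females 2 and 3, and 1 with dim probes left out or with all groups in 1 fit. The 2 forebrain calls became 0 under each of these settings. The 2 retinoic acid calls became 1 under the 75th percentile, normexp, the authors' value table, dim probes left out, all groups in 1 fit and array weights, and 0 under quantile normalization, both batch blocks, the methods' t-test and without sham females 2 and 3. The 3 marker calls became 1 under quantile normalization, normexp and all groups in 1 fit, and 0 under both batch blocks, the methods' t-test and without sham females 2 and 3. Leaving out each array gave 0 to 4 other positional calls, 0 to 1 forebrain, 0 to 1 retinoic acid and 0 to 1 marker calls. Vax1 turned from 0.83 to -0.019 under normexp.

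Over all genes the 946 female calls became 64 under quantile normalization, 111 under normexp, 188 without dim probes, 231 with all groups, 0 with the slide block, 14 with the scan day block, 3 by the methods' t-test, 39 without sham females 2 and 3, and 2 to 950 leaving out each array (950 without sham female 2, and 2 to 16 without any other female array). The 13 male calls became 0 under normexp, all groups in 1 fit, the methods' t-test and without sham male 1 and OOX male 2 together, 27 with array weights and 6 to 12 leaving out each array. Replicate numbers did not pair the samples (correlations of deviations from -0.56 to 0.34), and with the replicate block the calls were 0 over all female genes, 8 over male genes, and 0 in each list. The cause of these changes was not tested. Within-slide values rest on 1 array a group, with no replicate check.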
